A study of Mus musculus with 9 samples.

Results

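LF3 and ICG-001, a pair of small molecules that the series describes as Wnt inhibitors, were compared directly with each other in mouse salivary gland cancer stem cells. The 3 arrays titled LF3 were set against the 3 arrays titled ICG, which is 6 of the 9 arrays of the study. The remaining 3 arrays, from cells given the solvent DMSO, showed on which side of the solvent level a gene stood and helped to estimate the spread. They also entered the normalization, the detection filter and the choice of probe. Thus 20 tested genes were detected on none of the 6 compared arrays, and 3 of these passed. The members were the 7354 genes detected well enough to be tested, of 16593 genes named on the array.

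The cells came from C57BL/6 mice, were isolated as primary cells and grew in medium with serum replacement. All 3 groups were harvested after 24 h, as cells with LF3, with ICG-001 or with DMSO, and total RNA was hybridised to Illumina bead arrays. The mutations these cells carry, and whether they descend from 1 clone, are not stated in the labels. The labels leave it unsaid whether the 3 arrays of a group hold separate cultures. All p-values therefore rest on the spread between these arrays alone, and that spread may be technical. The labels also name no doses, so what belongs to a compound and what to its dose cannot be told apart.

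In Wnt signalling, β-catenin escapes degradation, enters the nucleus and binds transcription factors of the TCF/LEF family on DNA, where it recruits coactivators such as the histone acetyltransferases CBP and p300. LF3 is known to block the contact of β-catenin with TCF4, and ICG-001 to block its contact with CBP. Both therefore act late in the pathway, at different partners of the same protein, and CBP also serves many transcription factors outside it. In salivary gland tumours, Wnt signalling is known for sustaining cells with stem cell properties.

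Levels are normalized log2 intensities, and a difference is LF3 minus ICG-001, so that a negative value means a higher level with ICG-001. Levels of different genes come from different probes and are not compared with each other. The mean deposited signal of an array ranged from 340.0 to 396.5 for LF3 and from 368.3 to 409.4 for ICG-001, with 9939 to 10637 and 10156 to 10554 of 25697 probes detected. Across probes, which are not independent replicates, arrays correlated at r = 0.9873 to 0.9926 within LF3, at 0.9922 to 0.9940 within ICG-001 and at 0.9627 to 0.9662 in the 9 pairs of an LF3 with an ICG-001 array. The residual SD of an array lay between 0.148 and 0.190 for LF3, with the third the highest, and between 0.119 and 0.137 for ICG-001.

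The label of the cells was set against marker genes. Of 18 stem and progenitor markers on the array, 8 were detected on none of the 6 arrays, among them Lgr5, Prom1 and Aldh1a1. Aldh3a1 and Cd44 were detected on all 6, and Sox9 on all 3 LF3 arrays and 2 of the 3 ICG-001 arrays. The epithelial markers Cdh1, Krt18, Krt19, Krt5, Krt14 and Trp63 were also detected on none of the 6, as were 14 of 18 acinar, 18 of 22 ductal and luminal, and 11 of 16 basal and myoepithelial markers. Likewise undetected were 14 of the 21 markers of macrophages and leukocytes, 12 of the 18 of fibroblasts and 13 of the 16 of endothelium. Detected on all 6 arrays were 4 acinar markers (Aqp5, Slc12a2, Xbp1 and Etv1), 1 ductal marker (Wfdc2) and 3 basal markers (Itgb4, Mylk and Dst). The data thus show a culture with some progenitor genes and a minority of the markers of each differentiated salivary cell type.

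The inhibitors left the cells with widely different expression profiles. Many of the tested interferon-stimulated genes, chemokines, NF-kB genes, p53 targets and Wnt targets were higher with ICG-001. Many genes of mitosis, glutathione and NADPH metabolism, cholesterol synthesis and basement membrane were higher with LF3. By limma's test with Benjamini-Hochberg adjustment over all genes, 2978 of 7354 genes passed an adjusted p of 0.05, which is 40.5%. Of these, 1514 (20.6%) were higher with LF3 and 1464 (19.9%) were higher with ICG-001. The split rests on the scaling: with arrays scaled to their median instead of quantile-normalized, 750 genes were higher with LF3 and 1985 with ICG-001, and the median difference over all genes moved from 0.0026 to -0.14. No gene called under both scalings changed direction.

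Most differences were small. The median absolute difference was 0.288 over all genes and 0.562 among those that passed, and 1594 of the latter were under 1.5-fold. At least 2-fold differences were found for 304 genes (4.13%), with 159 (2.16%) higher with LF3 and 145 (1.97%) higher with ICG-001. Only 10 genes that passed were at least 4-fold higher with LF3 and 20 at least 4-fold higher with ICG-001. An unadjusted p under 0.05 was found for 3611 genes (49.1%), and the 3 LF3 arrays lay wholly to one side of the 3 ICG-001 arrays for 3797 (51.6%). Among the genes that passed, the groups overlapped for 93. Against DMSO, 1720 genes (23.4%) passed with LF3 and 2854 (38.8%) with ICG-001. These last comparisons share the DMSO arrays.

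**Figure D1:**
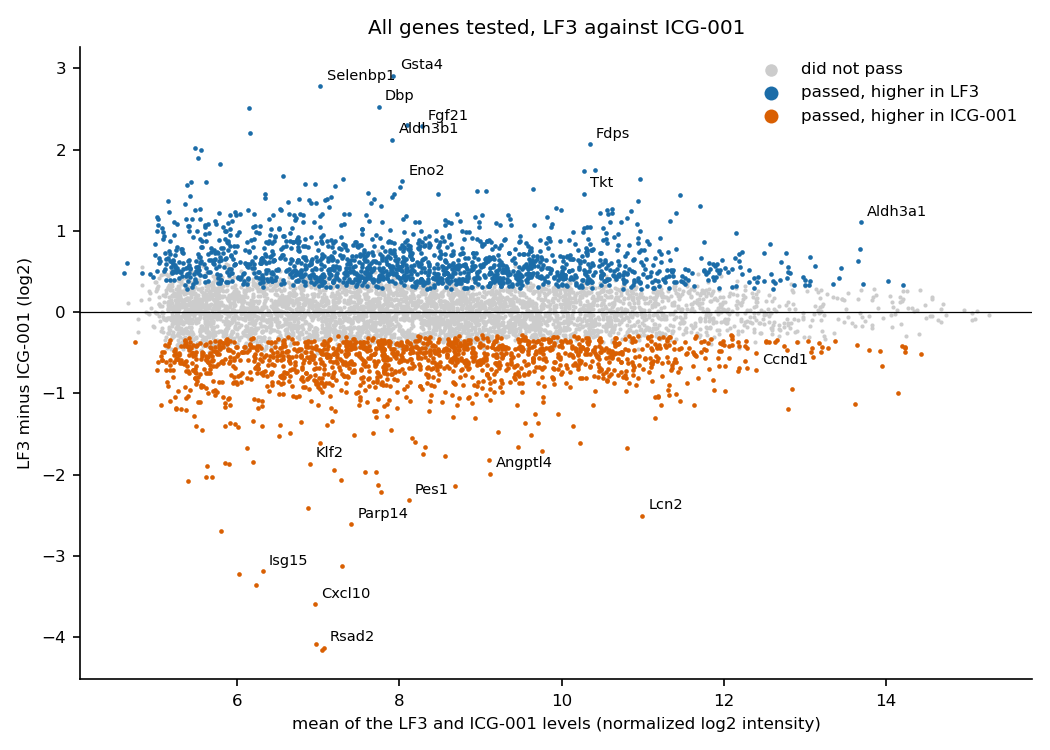
Each point is 1 of 7354 genes, plotted by the mean of its LF3 and ICG-001 levels (normalized log2 intensity, horizontal) and by the difference LF3 minus ICG-001 (log2, vertical), with genes that passed limma's test at an adjusted p of 0.05 in blue (1514, higher in LF3) and orange (1464, higher in ICG-001). The downward tail holds Rsad2, Cxcl10 and Isg15, and the upward one Gsta4, Selenbp1 and Dbp.

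Interferon-stimulated genes made up most of the largest differences. Type I interferon signals through the receptor kinases to transcription factors that bind the interferon-stimulated response element (ISRE) in promoters and switch on antiviral effectors. Promoter windows are shown for 4 of these genes because they were among the 12 largest differences toward ICG-001 and hold the core letters of this element. The windows run from 250 bases before to 50 after the annotated start, are given 5′ to 3′ on the gene's strand from RefSeq for GRCm38.p6, and have the ISRE core, GAAA and GAAA with any 2 bases between, read on either strand, in capitals.
Rsad2: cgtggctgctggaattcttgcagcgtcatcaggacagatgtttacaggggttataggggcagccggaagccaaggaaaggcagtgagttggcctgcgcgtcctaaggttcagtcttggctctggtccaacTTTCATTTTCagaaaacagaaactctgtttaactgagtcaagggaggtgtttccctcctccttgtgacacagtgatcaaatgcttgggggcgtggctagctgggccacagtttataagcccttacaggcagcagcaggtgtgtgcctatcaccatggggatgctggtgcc
Isg15: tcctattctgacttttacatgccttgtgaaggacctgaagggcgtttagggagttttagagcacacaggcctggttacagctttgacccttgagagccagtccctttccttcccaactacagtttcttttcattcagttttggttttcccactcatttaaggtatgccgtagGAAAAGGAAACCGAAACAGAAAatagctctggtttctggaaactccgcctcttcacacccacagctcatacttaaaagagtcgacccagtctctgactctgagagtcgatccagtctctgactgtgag
Ifit3: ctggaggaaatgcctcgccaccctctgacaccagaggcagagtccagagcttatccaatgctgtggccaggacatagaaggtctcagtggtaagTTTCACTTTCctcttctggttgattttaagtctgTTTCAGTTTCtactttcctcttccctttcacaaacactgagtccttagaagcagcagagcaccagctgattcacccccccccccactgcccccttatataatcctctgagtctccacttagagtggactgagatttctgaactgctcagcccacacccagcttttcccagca
Gbp2: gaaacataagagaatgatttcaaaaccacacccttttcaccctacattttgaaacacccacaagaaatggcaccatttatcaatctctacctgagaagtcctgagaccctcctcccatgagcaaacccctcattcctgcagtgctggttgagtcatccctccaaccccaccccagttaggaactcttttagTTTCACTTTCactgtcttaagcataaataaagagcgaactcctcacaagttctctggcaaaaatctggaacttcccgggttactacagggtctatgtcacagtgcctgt
These windows lie at chr12:26456403-26456702 (minus strand, Rsad2), chr4:156200769-156201068 (minus strand, Isg15), chr19:34583279-34583578 (plus strand, Ifit3) and chr3:142620413-142620712 (plus strand, Gbp2). The first match starts 120 bases before the start in Rsad2, 78 in Isg15, 156 in Ifit3 and 59 in Gbp2. Isg15 holds 3 overlapping matches, on the gene's strand, and Ifit3 holds 2 separate ones on the other strand. The core was found in 10 of the 18 tested interferon-stimulated effectors with a window (55.6%) and in all 5 interferon-induced GTPases, against 3.64% of the 6079 tested genes with a window and 3.99% of 27025 genes. It was also found in 1 of 5 tested chemokines with a window, Cxcl10, and in 3 of 8 antigen presentation genes, though in 0 of the 4 of these that were higher with ICG-001. A match is a description of the letters and not evidence of binding, and no match says only that the letters are not in the window.

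Of 39 interferon-stimulated effectors on the array, 24 could be tested, and 21 of them were higher with ICG-001 and 0 with LF3 (background 19.9% and 20.6%). The median difference of the list was -1.92, against 0.0026 over all genes. The 3 that did not pass were Bst2 (-0.29), Ifit2 (-0.13) and Zbp1 (0.05). Of the 15 members detected on all 6 arrays the median was -1.15, and 12 passed when only genes detected on all 6 arrays were tested. Without the first ICG-001 array, 19 effectors passed.

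Usp18, a protease that removes the ubiquitin-like ISG15 from proteins and dampens interferon receptor signalling, stood at 5.32, 4.78 and 4.79 on the LF3 arrays and at 9.88, 8.98 and 8.52 on the ICG-001 arrays. It was detected on 1 of the 3 LF3 arrays and all 3 ICG-001 arrays, and was at least 13.2-fold higher with ICG-001 (limma adjusted p = 1.72e-07). Its level with DMSO was 5.45, 5.74 and 5.59, so the ICG-001 arrays lay far above both, and LF3 did not pass against DMSO (-0.63, limma adjusted p = 0.0938). Rsad2, the antiviral enzyme viperin whose promoter is shown above, stood at 5.36, 4.78 and 4.86 with LF3 and at 10.08, 8.94 and 8.36 with ICG-001, at least 13.1-fold higher (limma adjusted p = 6.85e-07). Oasl2, an oligoadenylate synthetase-like protein, was detected on no LF3 array and at 9.68, 8.93 and 8.45 with ICG-001, at least 12.6-fold higher. In all 3 genes the first ICG-001 array was the highest and the third the lowest, with no overlap with LF3.

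Isg15, the ubiquitin-like modifier itself, was also detected on no LF3 array and stood at 8.63, 7.84 and 7.26 with ICG-001, at least 5.83-fold higher (limma adjusted p = 1.10e-06). Ifit3, a protein that binds viral RNA together with its relatives, was measured on all 6 arrays, at 5.52, 5.83 and 5.80 with LF3 and at 9.86, 8.73 and 7.95 with ICG-001. Its difference was -3.13 (SE 0.32, 8.75-fold, limma adjusted p = 9.58e-06). Its other 2 probes gave -2.11 and -2.43, so the size but not the direction depended on the probe. Parp14, an ADP-ribosyltransferase, stood at 6.14, 6.08 and 6.09 with LF3 and at 9.03, 8.63 and 8.47 with ICG-001, a 6.10-fold difference (limma adjusted p = 9.32e-08). With DMSO it stood between the inhibitors, at 7.36, 6.94 and 7.11, and it passed against DMSO in both directions: -1.04 with LF3 and 1.57 with ICG-001. Cmpk2, a mitochondrial nucleotide kinase beside Rsad2 on chromosome 12, was detected on no LF3 array and was at least 3.41-fold higher with ICG-001.

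Interferon-induced GTPases restrict microbes inside cells. Of 15 on the array, 5 could be tested and 4 were higher with ICG-001 (80%, against 19.9% of all genes). The fifth was Irgm1 with a difference of 0.27 (limma adjusted p = 0.107). Gbp2 stood at 5.71, 5.57 and 5.71 with LF3, at 8.58, 7.95 and 7.71 with ICG-001 and at 7.06, 6.88 and 7.08 with DMSO. The LF3 arrays were thus the lowest of the 9 and the ICG-001 arrays the highest. The difference was -2.42 (SE 0.18, 5.34-fold, limma adjusted p = 5.54e-07), and Gbp2 passed against DMSO in both directions. Gbp3 (at least 5.83-fold), Irgm2 (at least 2.52-fold) and Igtp (at least 2.39-fold) were detected on every ICG-001 array and on no LF3 array, so the list's count fell to 1 when only genes detected on all 6 arrays were tested. The list's count was also 1 in a fit of the 6 arrays alone without the first ICG-001 array, an alternative chosen after seeing the data. That fit kept only probes detected on at least 3 of its arrays, which Gbp3, Irgm2 and Igtp could not meet. The fall was thus fixed by the filter and cannot show dependence on the first ICG-001 array.

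The ICG-001 arrays differed among themselves in these genes. Over the 25 effectors and GTPases that passed, the first ICG-001 array was the highest of the 3 in all 25 and the third the lowest in 24. The LF3 and ICG-001 arrays did not overlap in 24, a share near that of all genes that passed (2885 of 2978). The median of the tested effectors was 8.73, 8.30 and 7.98 on the ICG-001 arrays against 6.03, 6.15 and 6.07 on the LF3 arrays and 6.13, 6.06 and 6.00 with DMSO. Macrophage and leukocyte markers, which could accompany such genes, were summed over all 21 on the array, including the 14 detected on none of the 6 arrays. The summed normalized intensity lay between 4157 and 5005 for LF3 and between 5001 and 5161 for ICG-001. The part of these markers in the result was not tested. Most of that sum is Laptm5, a lysosomal protein of blood cells, whose mean level was 11.9 with LF3 and 12.03 with ICG-001 and which did not pass (-0.13). Of the 5 tested, Cd74, Cd14 and Lyz2 were higher with ICG-001 (60%, against 19.9% of all genes). Lyz2 lost its call without either ICG-001 replicate 1 (adjusted p = 0.0953) or LF3 replicate 1 (adjusted p = 0.101) and in 6 further alternatives, over all of which limma's adjusted p reached 0.118. The defining markers Ptprc, Adgre1, Itgam, Tyrobp and Fcer1g were detected on none of the 6 arrays. In such bulk samples, fewer cells of a type and less RNA per cell cannot be told apart.

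**Figure D2:**
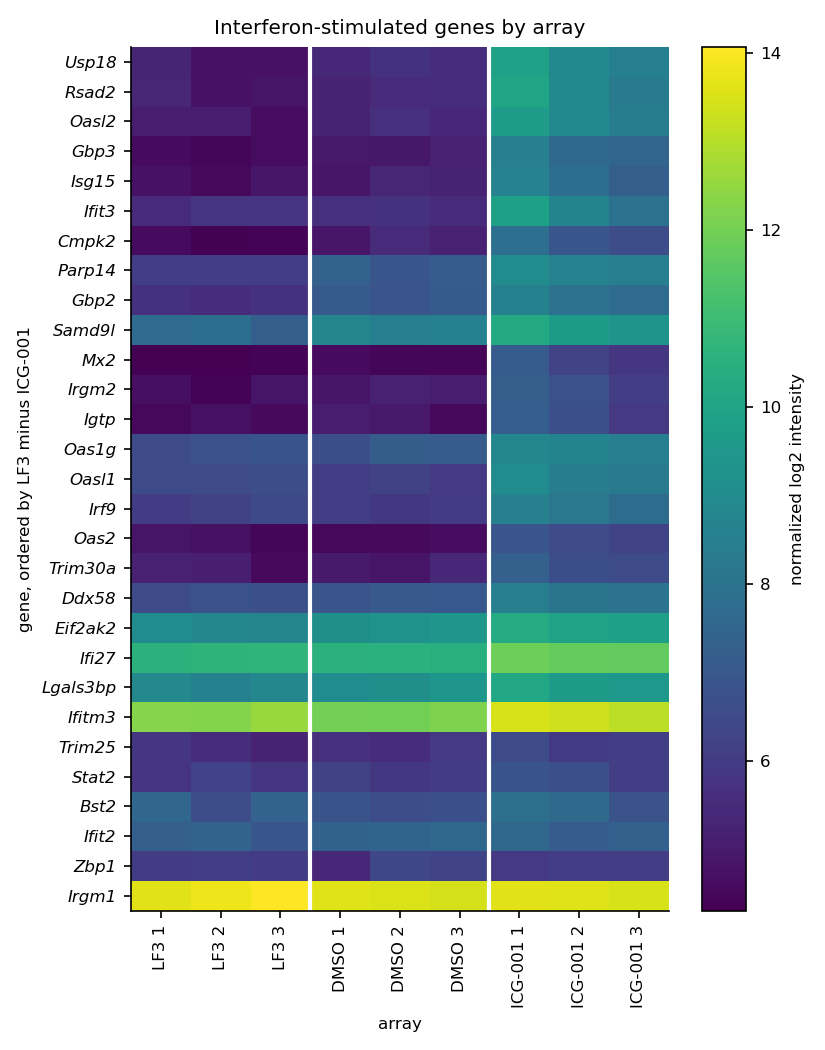
Normalized log2 intensity (colour) of the 29 tested interferon-stimulated effectors and GTPases (rows, ordered by LF3 minus ICG-001) on the 9 arrays (columns, white lines between groups). The upper 25 rows passed and are higher in ICG-001, and the first ICG-001 array is the highest of its group in each of these. The LF3 and ICG-001 arrays do not overlap in 24 of them, against 2885 of all 2978 genes that passed.

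Chemokines attract immune cells. Of 21 on the array, 9 could be tested, of which 5 were higher with ICG-001 and 2 with LF3 (background 19.9% and 20.6%). Cxcl10, an interferon-induced ligand of CXCR3, was detected on 1 LF3 array and stood at 9.52, 8.59 and 8.16 with ICG-001, at least 10.3-fold higher (limma adjusted p = 6.26e-07). Ccl4 was detected on no LF3 array and stood at 8.29, 7.53 and 7.09 with ICG-001, at least 4.83-fold higher. Ccl5, also called RANTES, stood at 6.86, 6.41 and 6.72 with LF3 and at 9.34, 8.90 and 8.40 with ICG-001, a difference of -2.22 (SE 0.19, 4.66-fold). In all 3 genes the first ICG-001 array was again the highest and the third the lowest. Ccl7 (-1.40) and Cx3cl1 (-0.75) were the other members higher with ICG-001. Cxcl5 (at least 1.53-fold higher with LF3, on 2 of whose arrays it was detected) and Ccl9 (at least 1.81-fold) were detected on no ICG-001 array, and neither counted when only genes detected on all 6 arrays were tested, which left 3 members higher with ICG-001. Cx3cl1, Cxcl5 and Ccl9 are named after their values were seen.

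NF-kB is a family of transcription factors held in the cytoplasm by IκB proteins until inflammatory signals release them. Of 16 tested members of 24 on the array, 15 were higher with ICG-001 and 0 with LF3 (background 19.9% and 20.6%), with a list median of -0.68. Leaving out any 1 of the 6 arrays left 11 to 14. Traf1, an adaptor of TNF receptors, stood at 7.34, 7.26 and 7.57 with LF3 and at 8.94, 9.15 and 8.88 with ICG-001, a difference of -1.60 (SE 0.13, 3.03-fold, limma adjusted p = 1.36e-06). Rela, the p65 subunit, stood at 9.75, 9.80 and 9.87 with LF3 and at 10.92, 11 and 10.94 with ICG-001, a difference of -1.15 (SE 0.11). The replicates of Rela lay close together in both groups, which were wholly apart. Relb, a second subunit, differed by -0.72, and Nfkbie, an IκB protein, by -0.81. Bcl3 (-0.09), a member of the IκB family, was the only tested member that did not pass. Against DMSO, Relb passed with ICG-001 (1.04) and Nfkbie with LF3 (-0.72), so the same difference came from different sides of the solvent level. A core of the NF-kB site, GGGAA and TTCC with any base between, was found on either strand in 1 of 14 members with a promoter window (7.14%), against 0.362% of tested genes.

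Genes of epithelial defence and antigen presentation followed with smaller differences. Lcn2, lipocalin 2, which starves bacteria of iron, stood at 9.48, 10 and 9.72 with LF3 and at 12.46, 12.34 and 11.92 with ICG-001. This was 5.68-fold higher with ICG-001 (difference -2.51, SE 0.17, limma adjusted p = 2.51e-07), while the LF3 arrays overlapped the DMSO arrays (9.72, 9.87 and 9.51). Of 6 tested acute-phase and defence genes, 4 were higher with ICG-001 (66.7%, against 19.9% of all genes), the others being Tlr2 (-0.84), Cd14 (-0.70) and Saa3 (-0.49). Saa3 did not pass without LF3 replicate 2 (limma adjusted p = 0.0540) or ICG-001 replicate 1 (limma adjusted p = 0.0717). Nor did it pass in 1 further alternative, where limma's adjusted p was 0.0751. Both inhibitors lay below DMSO for Tlr2 and Saa3, LF3 (-1.27 and -1.14) further than ICG-001 (-0.43 and -0.65). Cd14 passed against DMSO with ICG-001 (0.59) and not with LF3 (-0.11). Of 11 tested antigen presentation genes, 6 were higher with ICG-001 (54.5%, against 19.9% of all genes). They were led by the class I heavy chain H2-D1 (-0.91, limma adjusted p = 0.000935) and the immunoproteasome subunit Psmb10 (-0.86). The count was 3 when only genes detected on all 6 arrays were tested.

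Genes of mitosis went the other way. Of 37 tested mitosis genes of 45 on the array, 21 were higher with LF3 and 0 with ICG-001 (background 20.6% and 19.9%), with a list median of 0.43. With median scaling the count was 11. Mitotic genes are known for a promoter element called the cell cycle genes homology region (CHR), through which the DREAM and MuvB complexes hold them down in resting cells and drive them before division. The windows of Plk1 and Spc25, members with some of the lowest adjusted p-values of the list, are shown with the CHR letters TTTGAA in capitals, from the same RefSeq table.
Plk1: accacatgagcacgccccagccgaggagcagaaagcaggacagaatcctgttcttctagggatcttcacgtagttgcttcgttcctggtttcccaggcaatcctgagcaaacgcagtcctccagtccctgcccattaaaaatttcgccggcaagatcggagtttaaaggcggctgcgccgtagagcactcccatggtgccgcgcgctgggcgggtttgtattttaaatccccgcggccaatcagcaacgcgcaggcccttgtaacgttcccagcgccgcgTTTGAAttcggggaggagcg
Spc25: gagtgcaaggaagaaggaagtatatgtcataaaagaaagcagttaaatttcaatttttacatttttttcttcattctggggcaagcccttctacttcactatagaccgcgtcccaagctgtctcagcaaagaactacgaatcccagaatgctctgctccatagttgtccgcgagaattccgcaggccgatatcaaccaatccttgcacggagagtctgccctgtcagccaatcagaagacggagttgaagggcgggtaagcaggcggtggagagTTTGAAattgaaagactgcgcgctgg
They lie at chr7:122159185-122159484 (plus strand, Plk1) and chr2:69206164-69206463 (minus strand, Spc25), and the match starts 30 bases after the annotated start in Plk1 and 24 after it in Spc25. In Spc25 it overlaps a match to the ISRE core letters. TTTGAA, searched on both strands, was found in 26 of 32 mitosis genes with a window (81.2%), and in 15 of the 17 of these that were higher with LF3 (88.2%). It was found in 5 of 32 DNA replication genes (15.6%), in 13.9% of tested genes with a window and in 20.2% of all genes with one.

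Cdc25c, the phosphatase that activates CDK1 at entry into mitosis, stood at 8.13, 8.34 and 8.47 with LF3 and at 6.85, 7.00 and 7.09 with ICG-001. The groups lay wholly apart, with a difference of 1.34 (SE 0.13, 2.53-fold, limma adjusted p = 5.73e-06), and the LF3 arrays overlapped the DMSO arrays (8.34, 8.02 and 8.11). Plk1, a kinase of spindle assembly and cytokinesis, stood at 10.24, 10.31 and 10.14 with LF3 and at 9.31, 9.54 and 9.47 with ICG-001, a difference of 0.79 (SE 0.11, limma adjusted p = 0.000139). Spc25, a kinetochore protein, differed by 0.90 (SE 0.13) and Tpx2, a spindle assembly factor, by 0.90 (SE 0.14). All 4 genes passed against DMSO with ICG-001, at -1.18, -1.07, -0.87 and -0.59, and none did with LF3. Of the members that did not pass, Birc5, the inhibitor of apoptosis survivin and also a Wnt target, stood at 12.06, 12.12 and 12.05 with LF3 and at 11.76, 11.87 and 11.78 with ICG-001. Its groups did not overlap, but the difference of 0.27 (SE 0.11) missed the threshold (limma adjusted p = 0.0552). Of its other 2 probes, 1 gave 0.35 and passed in a fit of all kept probes (limma adjusted p = 0.0441), and the other gave 0.23 and did not.

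**Figure D3:**
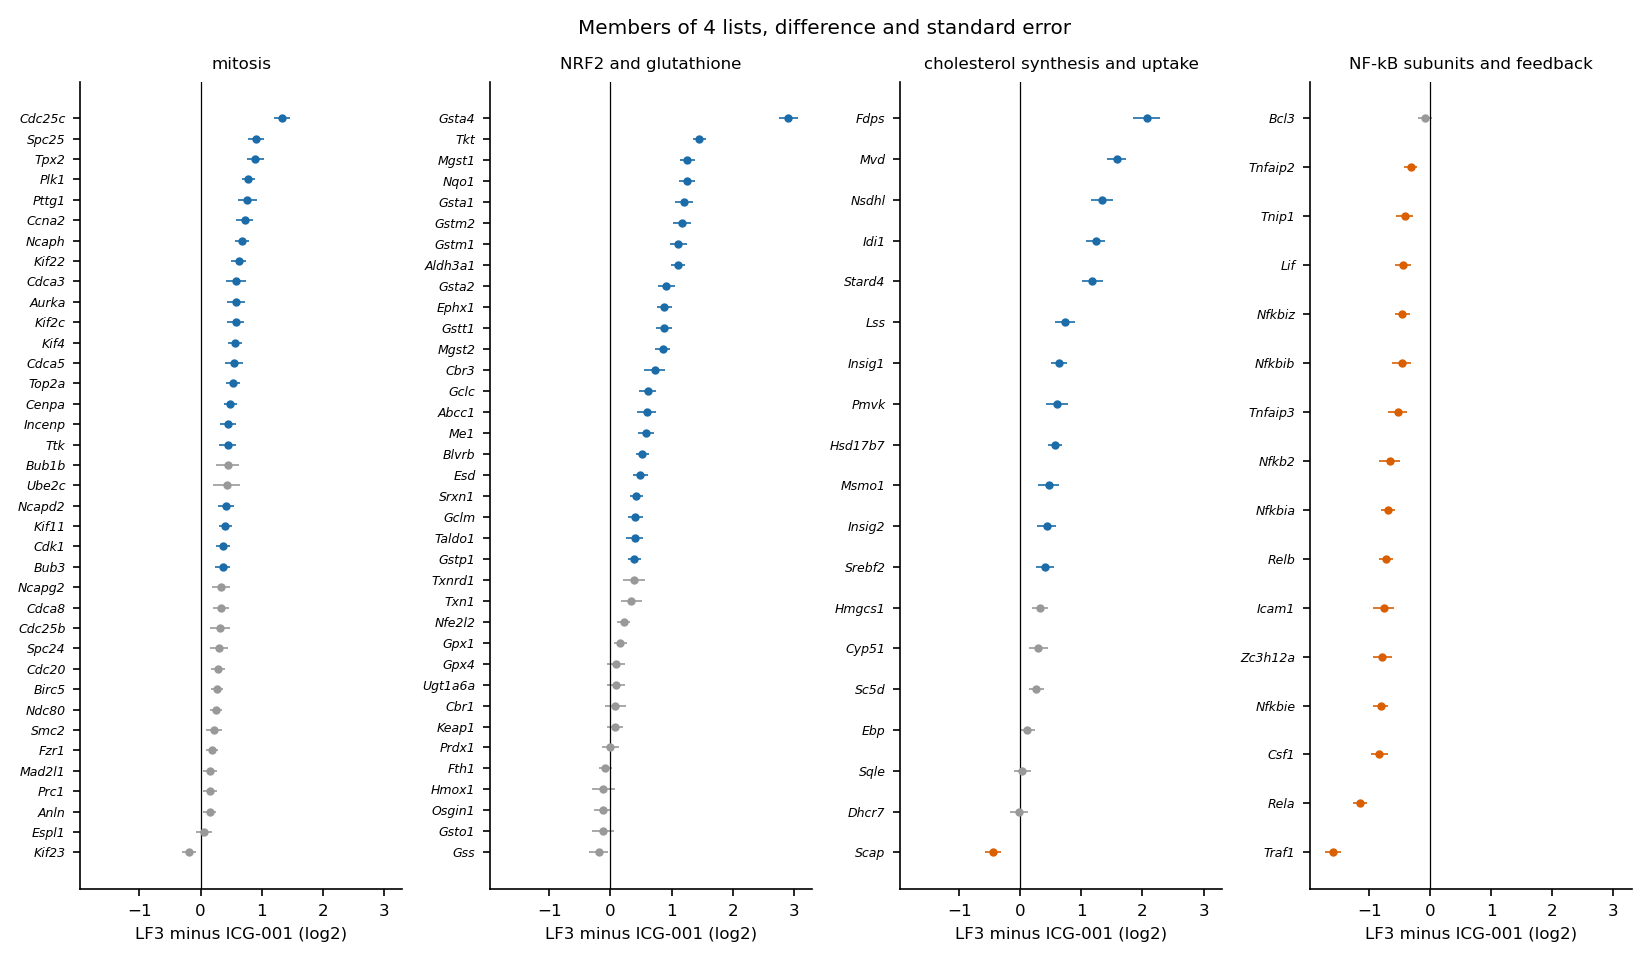
Difference LF3 minus ICG-001 (log2, point) and its standard error (bar) for each tested member of 4 gene lists, in blue where it passed and was higher in LF3, in orange where it passed and was higher in ICG-001 and in grey where it did not pass. Of the mitosis genes 21 are blue and 0 orange, of the NRF2 and glutathione genes 22 and 0, of the cholesterol genes 12 and 1, and of the NF-kB genes 0 and 15.

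DNA replication genes passed as often as all genes (40.5% in both). Of 37 tested members, 10 were higher with LF3 and 5 with ICG-001 (20.6% and 19.9% of all genes), with a list median of 0.13. The first count fell to 3 with median scaling and to 5 without the first ICG-001 array, and the second to 1 without the second ICG-001 array and to 2 or 3 without the third, LF3 replicate 1 or LF3 replicate 2. Tk1, thymidine kinase of the salvage pathway, stood at 11.28, 11.13 and 11.27 with LF3 and at 10.06, 10 and 9.94 with ICG-001, a difference of 1.23 (SE 0.11, 2.34-fold, limma adjusted p = 2.82e-06). Lig1, the DNA ligase that joins Okazaki fragments, differed by 1.05 (SE 0.11), although 1 of its other 3 probes gave 0.28 and did not pass. Rrm2, a subunit of ribonucleotide reductase, stood at 8.44, 8.50 and 8.44 with LF3 and at 9.07, 8.92 and 9.16 with ICG-001, a difference of -0.59 (SE 0.12, limma adjusted p = 0.00155). Tk1 and Lig1 were lower than DMSO with ICG-001 (-1.23 and -1.31), whereas Rrm2 was lower than DMSO with LF3 (-0.77).

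The tumour suppressor p53 switches on genes of arrest and apoptosis after damage or other stress. Of 28 tested targets, 13 were higher with ICG-001 and 4 with LF3 (background 19.9% and 20.6%), with a list median of -0.29. Plk2, a kinase of the centrosome cycle, stood at 9.21, 9.31 and 9.13 with LF3, at 10.25, 10.45 and 10.29 with ICG-001 and at 8.40, 8.51 and 8.66 with DMSO. It was highest with ICG-001 (difference -1.11, SE 0.12, limma adjusted p = 1.06e-05), and both inhibitors lay above DMSO. Bbc3, the BH3-only protein PUMA, differed by -1.02 (SE 0.12), Ccng1, cyclin G1, by -0.96 (SE 0.11) and Phlda3, an inhibitor of AKT, by -0.92 (SE 0.12). The death receptor Fas stood at 7.21, 7.15 and 6.87 with LF3 and at 8.54, 8.40 and 7.96 with ICG-001, a difference of -1.22 (SE 0.17). Cdkn1a, the CDK inhibitor p21, differed by -0.40 and did not pass (limma adjusted p = 0.0521). Ddb2 (0.70), Gadd45g (0.48), Xpc (0.41) and Plk3 (0.41) were the 4 higher with LF3, a count that was 1 with median scaling and 2 without the first ICG-001 array. These 4 and Cdkn1a are named after their values were seen.

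Wnt target genes bear on the pathway that both compounds are described as inhibiting. Of 36 on the array, 23 were detected on none of the 6 arrays and 12 could be tested. Axin2 and Lgr5, widely used readouts of the pathway, and Lef1 were not among those tested, and neither was Crebbp, which encodes CBP. Of the 12, 6 were higher with ICG-001 and 2 with LF3 (background 19.9% and 20.6%), with a list median of -0.46. Most of the targets that passed thus stood lower with LF3 than with ICG-001.

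Ccnd1, cyclin D1, stood at 12.18, 11.85 and 12.06 with LF3, at 12.83, 12.77 and 12.65 with ICG-001 and at 12.07, 12.54 and 12.60 with DMSO. The LF3 and ICG-001 arrays did not overlap, with a difference of -0.72 (SE 0.15, 1.64-fold, limma adjusted p = 0.00170), and its other 2 probes gave -0.63 and -0.56. Neither inhibitor passed against DMSO for this gene. Myc stood at 7.21, 7.38 and 7.37 with LF3 and at 8.03, 8.18 and 8.14 with ICG-001, a difference of -0.80 (SE 0.19, limma adjusted p = 0.00397). Its DMSO arrays spread from 6.68 to 7.57, more widely than either inhibitor's, and Myc passed against DMSO with ICG-001 (1.11) and not with LF3 (0.32). Cd44, a hyaluronan receptor found on many stem-like tumour cells, stood at 8.93, 8.83 and 8.73 with LF3 and at 9.73, 9.57 and 9.71 with ICG-001, a difference of -0.84 (SE 0.11, limma adjusted p = 5.80e-05). Abcb1b, a multidrug transporter, had the list's lowest adjusted p at a difference of -1.51 (SE 0.12, 2.84-fold), and Ccn4, a matricellular protein, differed by -0.81 (SE 0.13).

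The targets higher with LF3 were Id2, an inhibitor of basic helix-loop-helix factors, and Sox9, a transcription factor of progenitor cells. Id2 stood at 7.18, 6.95 and 6.50 with LF3 and at 6.11, 5.75 and 5.93 with ICG-001, a difference of 0.95 (SE 0.17, limma adjusted p = 0.000580), and with both inhibitors it was lower than DMSO (-0.77 and -1.72). Sox9 stood at 6.21, 6.18 and 5.88 with LF3 and at 5.47, 5.17 and 5.43 with ICG-001, where 2 of 3 arrays detected it, a difference of 0.73 (SE 0.14). Kremen1, a Wnt co-receptor inhibitor, did not pass (0.13, SE 0.15, limma adjusted p = 0.506). With median scaling its difference was -0.0073.

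Of 26 tested Wnt pathway components, 3 were higher with LF3 and 1 with ICG-001, a share of 15.4% that passed against 40.5% of all genes. Ctnnb1, β-catenin itself, stood at 11.70, 11.91 and 11.45 with LF3 and at 11.99, 11.54 and 12.08 with ICG-001, overlapping groups with a difference of -0.18 (SE 0.15, limma adjusted p = 0.373). Tcf7l2, which encodes TCF4, differed by 0.19 (SE 0.12, limma adjusted p = 0.214), and Ep300, which encodes p300, by -0.34 (SE 0.15, limma adjusted p = 0.0753). No difference was detected for these 3 genes at 3 arrays a group, which does not show equal levels. Ctnnbip1, an inhibitor of β-catenin (0.48), Apc of the destruction complex (0.46) and the receptor Fzd7 (0.34) were higher with LF3, and the receptor Fzd6 was higher with ICG-001 (-0.63). The first 3 did not pass with median scaling. Apc also lost its call without the first ICG-001 array (0.30, adjusted p = 0.0788), and Fzd7 without LF3 replicate 1 or 2 or ICG-001 replicate 2 or 3 (adjusted p from 0.0739 to 0.127) and with the replicate block (adjusted p = 0.0579), over whose alternatives limma's adjusted p reached 0.450.

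**Figure D4:**
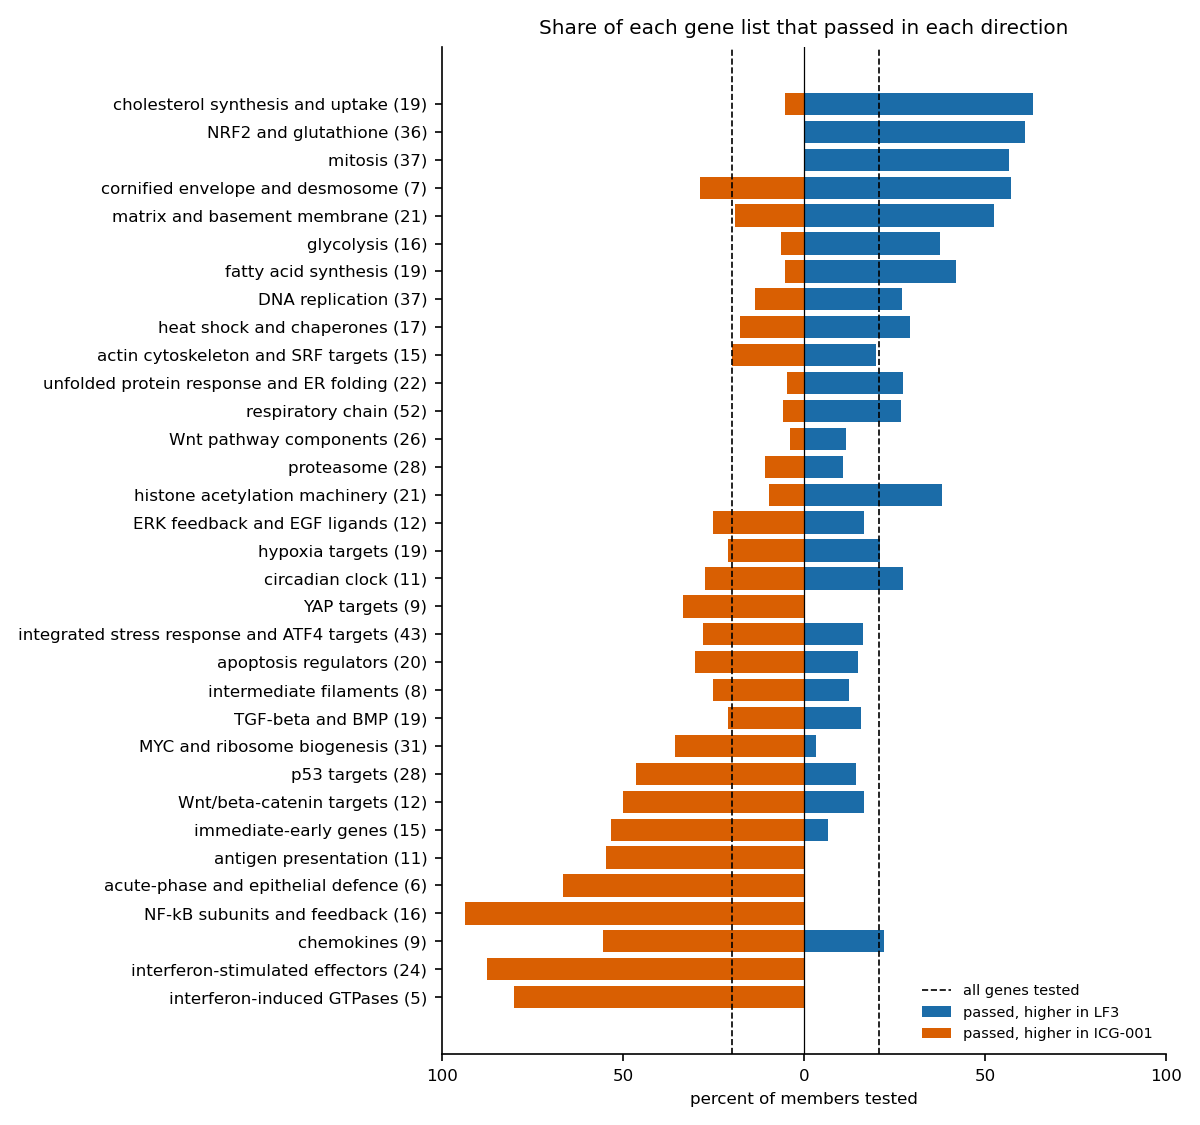
Share of the tested members of each of 33 pathway gene lists (number tested in brackets, lists ordered by their median difference) that passed limma's test and were higher in LF3 (blue, right) or higher in ICG-001 (orange, left), in percent. Dashed lines mark the shares over all genes, 20.6% and 19.9%.

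Genes of glutathione metabolism, detoxification and NADPH supply, many of them targets of the oxidative stress factor NRF2, were higher with LF3. Of 36 tested members of 44 on the array, 22 were higher with LF3 and 0 with ICG-001 (background 20.6% and 19.9%), with a list median of 0.46. Gsta4, a glutathione S-transferase for lipid peroxidation products, had the largest difference toward LF3 of all genes. It stood at 9.07, 9.43 and 9.65 with LF3, at 6.60, 6.34 and 6.49 with ICG-001 and at 7.47, 7.23 and 7.06 with DMSO. The LF3 arrays were the highest of the 9 and the ICG-001 arrays the lowest, with a difference of 2.91 (SE 0.15, 7.51-fold, limma adjusted p = 4.78e-08). It passed against DMSO in both directions.

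Tkt, transketolase of the pentose phosphate pathway, stood at 10.93, 10.92 and 11.16 with LF3 and at 9.52, 9.55 and 9.56 with ICG-001, a difference of 1.46 (SE 0.11, 2.75-fold, limma adjusted p = 7.62e-07). Aldh3a1, an aldehyde dehydrogenase that is also counted among the stem cell markers, stood at 14.31, 14.18 and 14.24 with LF3, at 13.21, 13.20 and 12.98 with ICG-001 and at 14.21, 14.29 and 14.16 with DMSO. The LF3 arrays overlapped the DMSO arrays and the ICG-001 arrays lay below both, with a difference of 1.11 (SE 0.11, limma adjusted p = 7.88e-06). Mgst1, a membrane-bound glutathione transferase, differed by 1.26 (SE 0.13). Some members are close relatives (Gsta1 with Gsta2, Gstm1 with Gstm2), and whether 1 probe reads both was not tested. Among genes that did not pass were Nfe2l2, which encodes NRF2 (0.21), its partner Keap1 (0.07) and the stress-induced heme oxygenase Hmox1 (-0.12), named after their values were seen. The letters TGACNNNGC, the core of the antioxidant response element that NRF2 binds, were found on either strand in 7 of 31 members with a promoter window (22.6%) and in 4 of the 18 of these that were higher with LF3 (22.2%), against 16.9% of tested genes.

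Outside the list, Aldh3b1, another aldehyde dehydrogenase, stood at 9.03, 8.96 and 8.92 with LF3 and at 6.89, 6.80 and 6.86 with ICG-001. This was a 4.35-fold difference (2.12, SE 0.10, limma adjusted p = 3.43e-08), with the LF3 arrays beside DMSO (8.89, 8.98 and 8.92). Selenbp1, a selenium-binding methanethiol oxidase, stood at 8.89, 8.08 and 8.28 with LF3, at 5.83, 5.42 and 5.65 with ICG-001 and at 9.52, 9.87 and 9.40 with DMSO. Its difference was 2.78 (SE 0.19, 6.88-fold), and both inhibitors lay below DMSO, ICG-001 further than LF3. A near-identical copy, Selenbp2, may share its probe, which was not tested. Rdm1, a relative of the recombination protein RAD52, stood at 9.25, 9.19 and 9.28 with LF3 and at 6.92, 6.90 and 7.00 with ICG-001, a 4.93-fold difference with the lowest adjusted p among the named genes (limma adjusted p = 3.12e-08).

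**Figure D5:**
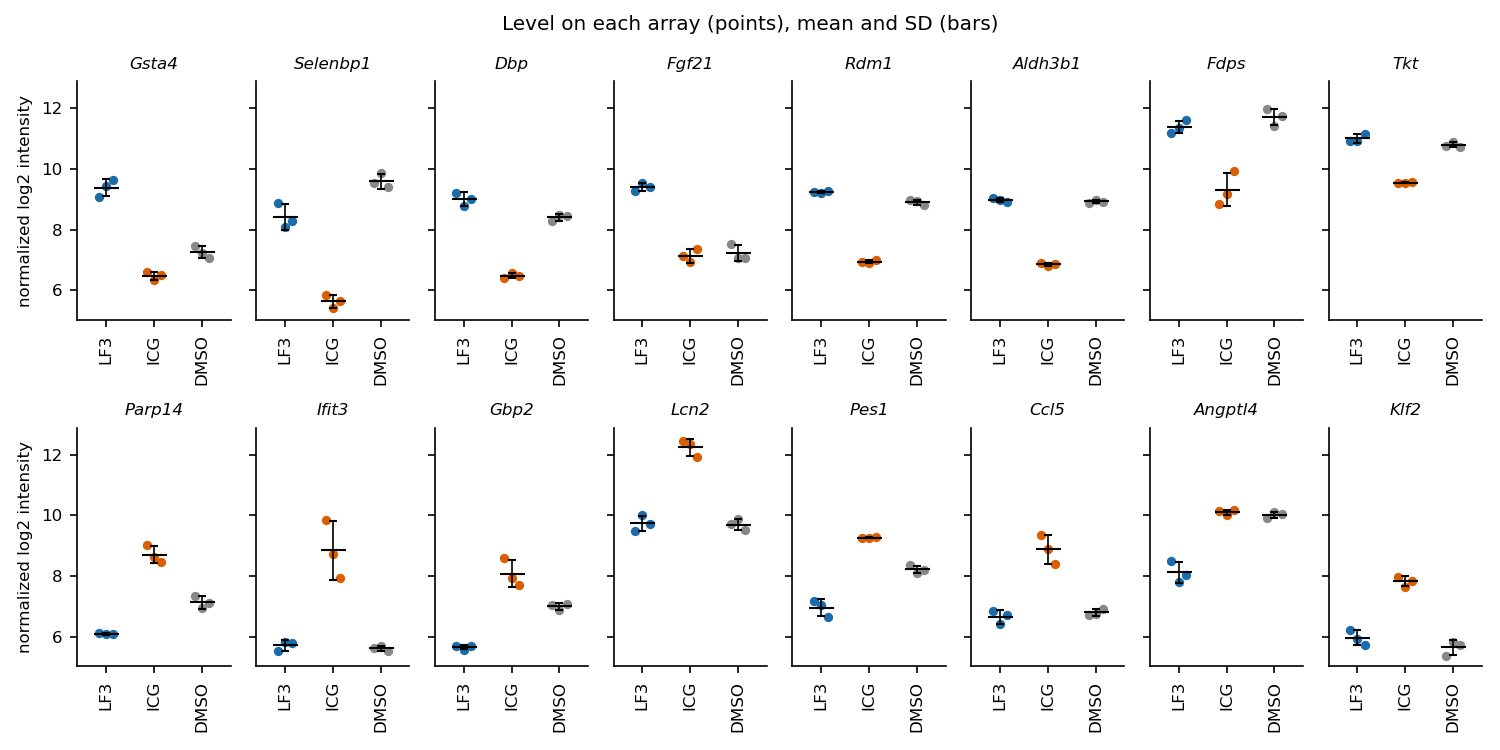
Normalized log2 intensity of 16 genes on each array (points), with the mean and SD of the 3 arrays of each group (bars), for LF3, ICG-001 (ICG) and DMSO. The upper row holds genes higher in LF3 and the lower row genes higher in ICG-001, and in each panel the LF3 and ICG-001 points do not overlap.

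The cholesterol pathway makes sterols and isoprenoids from acetyl-CoA through mevalonate, under the factor SREBP2. Of 19 tested members of 23 on the array, 12 were higher with LF3 and 1, the SREBP escort protein Scap (-0.45), with ICG-001, a call lost without the first ICG-001 array or the third LF3 array. The list median was 0.46, and 68.4% of the members tested passed, against 40.5% of all genes. Fdps, farnesyl diphosphate synthase, stood at 11.19, 11.36 and 11.60 with LF3, at 8.85, 9.18 and 9.92 with ICG-001 and at 11.97, 11.43 and 11.74 with DMSO. The difference of 2.07 (SE 0.22, 4.19-fold, limma adjusted p = 1.48e-05) came with a wide spread among the ICG-001 arrays, the third being the highest. Mvd, which makes isopentenyl diphosphate, stood at 7.44, 7.66 and 7.79 with LF3 and at 6.17, 5.95 and 6.04 with ICG-001, a difference of 1.58 (SE 0.15). Nsdhl, a sterol dehydrogenase, differed by 1.34 (SE 0.18), with its other 3 probes at 0.92 to 1.13, and Idi1, the isopentenyl diphosphate isomerase, was at least 2.28-fold higher with LF3, being detected on 1 ICG-001 array. All 4 passed against DMSO with ICG-001 (from -2.40 to -1.49) and none with LF3. The medians of the list against DMSO were -0.41 with LF3 and -0.92 with ICG-001. TCACNCCAC, the core of the sterol regulatory element, was found on either strand in 1 of 16 members with a promoter window (6.25%) and in 0 of the 10 of these that were higher with LF3, against 1.25% of tested genes.

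Of 19 tested fatty acid synthesis genes, 8 were higher with LF3 and 1, the triglyceride-forming Dgat2 (-0.81), with ICG-001 (47.4% in all, against 40.5% of all genes). Scd1, the stearoyl-CoA desaturase, stood at 10.28, 10.10 and 10.22 with LF3 and at 9.06, 9.28 and 9.03 with ICG-001, a difference of 1.08 (SE 0.12, limma adjusted p = 1.63e-05). Its relative Scd2 was detected on every LF3 array and on no ICG-001 array, at least 1.75-fold higher. Fa2h, which hydroxylates fatty acids of sphingolipids, stood at 7.96, 8.25 and 8.36 with LF3, at 7.20, 6.84 and 6.94 with ICG-001 and at 5.29, 5.45 and 5.49 with DMSO. Both inhibitors were above DMSO for Fa2h, and LF3 was above ICG-001 by 1.20 (SE 0.14). Acsl3, an acyl-CoA synthetase, differed by 0.82 (SE 0.11).

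Glycolysis and hypoxia genes gave mixed directions. Of 16 tested glycolysis genes, 6 were higher with LF3 and 1, the hexokinase Hk2 (-0.63), with ICG-001 (43.8% in all, against 40.5% of all genes). The first count was 2 with median scaling. Eno2, the neuronal enolase isoform, stood at 8.85, 8.62 and 9.05 with LF3 and at 7.53, 7.03 and 7.13 with ICG-001, a difference of 1.61 (SE 0.18, 3.05-fold, limma adjusted p = 1.84e-05), and Pfkm, the muscle phosphofructokinase, differed by 0.98 (SE 0.16). Of 19 tested hypoxia targets, 4 passed in each direction (42.1% in all, against 40.5%). Those higher with LF3 were 2 without the second ICG-001 array and with no filter on dim probes. Angptl4, a secreted inhibitor of lipoprotein lipase, stood at 8.51, 7.82 and 8.04 with LF3, at 10.14, 10.01 and 10.17 with ICG-001 and at 9.90, 10.10 and 10.06 with DMSO. The LF3 arrays alone stood apart, 3.97-fold below ICG-001 (difference -1.99, SE 0.15, limma adjusted p = 8.35e-07). Bnip3l, a mitophagy receptor, went the other way by 0.91 (SE 0.12).

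Of the respiratory chain genes, 14 of 52 tested were higher with LF3 and 3 with ICG-001, which is 32.7% against the 40.5% background, and the first count was 6 with median scaling. The members with the lowest adjusted p were the complex I subunits Ndufs7 (1.00, SE 0.11) and Ndufb2 (1.29, SE 0.16), the ATP synthase subunit Atp5c1 (0.98, SE 0.12) and the cytochrome oxidase subunit Cox6c (0.86, SE 0.11). Ndufs7 stood at 11.45, 11.52 and 11.44 with LF3, at 10.61, 10.34 and 10.47 with ICG-001 and at 11.08, 11 and 10.96 with DMSO. The solvent level of Ndufs7 lay between the inhibitors, and it passed against DMSO in both directions.

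The integrated stress response slows translation through eIF2α phosphorylation and switches on amino acid and redox genes through the factor ATF4. Of 43 tested members, 12 were higher with ICG-001 and 7 with LF3 (background 19.9% and 20.6%), with a list median of -0.10. The share that passed in either direction was 44.2%, against 40.5% of all genes. Within the list the extremes lay far apart. The promoter window of Fgf21 is shown because this hormone had the largest difference of the list and the window holds the ATF4 element core TGATGNAA, in capitals on the other strand.
Fgf21: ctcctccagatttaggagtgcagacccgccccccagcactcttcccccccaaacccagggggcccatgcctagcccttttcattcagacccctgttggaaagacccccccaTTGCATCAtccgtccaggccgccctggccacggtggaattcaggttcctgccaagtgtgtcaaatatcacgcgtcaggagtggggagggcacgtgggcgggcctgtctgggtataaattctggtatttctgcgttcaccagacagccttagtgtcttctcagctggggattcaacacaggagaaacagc
The window lies at chr7:45615441-45615740 (minus strand), and the match starts 139 bases before the annotated start. The core was found on either strand in 15 of 35 members of the list with a window (42.9%), against 2.75% of tested genes and 4.51% of all genes with one. Among the members that passed, it was found in 2 of 7 higher with LF3 (28.6%) and in 2 of 9 higher with ICG-001 (22.2%), so that most matches lay in members that did not pass.

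Fgf21, a hormone of metabolic stress, stood at 9.28, 9.54 and 9.42 with LF3, at 7.12, 6.92 and 7.35 with ICG-001 and at 7.53, 7.06 and 7.07 with DMSO. The LF3 arrays alone stood apart, with a difference of 2.29 (SE 0.15, 4.88-fold, limma adjusted p = 2.51e-07). Ddit3, the stress factor CHOP, named after its values were seen, was above DMSO with both inhibitors (2.98 with LF3 and 1.73 with ICG-001) and higher with LF3 by 1.24. Ppp1r15a, the eIF2α phosphatase subunit GADD34, stood at 8.37, 8.78 and 8.91 with LF3, at 9.58, 9.49 and 9.59 with ICG-001 and at 7.07, 6.99 and 6.88 with DMSO. Both inhibitors were above DMSO for Ppp1r15a, and ICG-001 was the higher of the pair (difference -0.87, SE 0.14, limma adjusted p = 0.000279). Aldh1l2, a mitochondrial folate enzyme, differed by -0.81 (SE 0.12) and Bcat1, a branched-chain aminotransferase, by -0.74 (SE 0.11), although 1 of the other 2 probes of Bcat1 did not pass. Atf4 itself did not pass (0.20).

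Of 22 tested genes of protein folding in the endoplasmic reticulum, 6 were higher with LF3 and 1, Selenos (-0.49), with ICG-001, so that 31.8% passed against 40.5% of all genes. The split was 1 and 5 with median scaling, and the first count was 3 without the third ICG-001 array. The second was 3 without the first ICG-001 array and 0 without the second or the third. Pdia4, a protein disulfide isomerase, stood at 11.32, 11.45 and 11.40 with LF3, at 10.21, 10.27 and 10.20 with ICG-001 and at 11.03, 10.59 and 10.69 with DMSO. The LF3 arrays lay above and the ICG-001 arrays below the solvent, with a difference of 1.16 (SE 0.12, limma adjusted p = 1.33e-05). Hspa5, the chaperone BiP, was above DMSO with both inhibitors and higher with LF3 by 0.58 (SE 0.15), a call lost with median scaling (0.40, limma adjusted p = 0.0766). Among heat shock and chaperone genes, 5 of 17 were higher with LF3 and 3 with ICG-001 (47.1% in all, against 40.5%), led by Hsp90aa1 (0.79, SE 0.17). The first count was 1 with median scaling, and was 2 or 3 without LF3 replicate 2 or any single ICG-001 array.

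MYC drives genes that build ribosomes. Of 31 tested MYC and ribosome biogenesis genes, 11 were higher with ICG-001 and 1, the MYC antagonist Mxd3 (at least 1.51-fold), with LF3. In all, 38.7% of the list passed, against 40.5% of all genes (19.9% higher with ICG-001 and 20.6% with LF3). The count with LF3 was 0 when only genes detected on all 6 arrays were tested. Pes1, a factor of large subunit assembly, stood at 7.18, 7.05 and 6.64 with LF3, at 9.25, 9.27 and 9.29 with ICG-001 and at 8.36, 8.11 and 8.19 with DMSO. The solvent level lay between, with a difference of -2.31 (SE 0.14, 4.96-fold, limma adjusted p = 1.28e-07), and Pes1 passed against DMSO in both directions. Ncl, nucleolin, stood at 8.39, 8.23 and 8.21 with LF3, at 9.68, 9.58 and 9.46 with ICG-001 and at 8.89, 9.21 and 9.08 with DMSO. It showed the same order at a difference of -1.30 (SE 0.12), and its other probe gave the same difference of -1.30. Polr1a, the largest subunit of RNA polymerase I, differed by -0.80 (SE 0.13).

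Immediate-early genes answer growth factors and stress within minutes. Of 15 tested, 8 were higher with ICG-001 and 1, Zfp36l1 (0.42), with LF3 (60% in all, against 40.5% of all genes). The count with LF3 was 0 with median scaling and without LF3 replicate 1 or 2 or ICG-001 replicate 2 or 3. Klf2, a factor of cell quiescence, stood at 6.23, 5.92 and 5.74 with LF3, at 7.98, 7.65 and 7.85 with ICG-001 and at 5.38, 5.83 and 5.73 with DMSO. LF3 overlapped the solvent and ICG-001 stood above both, with a difference of -1.87 (SE 0.15, 3.65-fold, limma adjusted p = 1.39e-06). Jun (-0.86), Junb (-0.80) and Klf4 (-0.60) were also higher with ICG-001. Of the ERK feedback and EGF ligand genes, 3 of 12 were higher with ICG-001 and 2 with LF3 (41.7% of the list, against 40.5% of all genes), and the first count was 5 with median scaling, array weights and 3 further alternatives. Dusp4, a phosphatase that switches off ERK, stood at 9.83, 9.82 and 10.14 with LF3 and at 8.80, 8.63 and 8.79 with ICG-001, a difference of 1.19 (SE 0.12). The EGF receptor family inhibitor Errfi1 (-1.04) and the ligand Hbegf (-0.77) went the other way. The receptor Egfr was called at -0.80, but its other 2 probes gave 0.0039 and -0.20 and did not pass, so its direction depends on the probe.

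Of 21 tested matrix and basement membrane genes, 11 were higher with LF3 and 4 with ICG-001 (background 20.6% and 19.9%), with a list median of 0.38. Col4a1, a chain of basement membrane collagen, stood at 9.33, 9.28 and 9.30 with LF3 and at 8.34, 8.15 and 8.05 with ICG-001, a difference of 1.12 (SE 0.12, limma adjusted p = 1.15e-05), and Col4a5, another chain, differed by 1.20 (SE 0.11). The LF3 and ICG-001 arrays of Col4a1 did not overlap. Mgp, matrix Gla protein, which binds calcium, was detected at 6.66, 6.58 and 6.21 with LF3 and on no ICG-001 array, at least 2.24-fold higher. Tnc, tenascin C, a glycoprotein of remodelling tissue, went the other way, being detected on 1 LF3 array and at 6.64, 6.73 and 6.77 with ICG-001, at least 2.48-fold higher. Of 6 tested fibroblast markers, Fbln2 (0.94) was higher with LF3 and Prrx1 (-0.77) with ICG-001. Col1a1, detected on 2 LF3 arrays and no ICG-001 array, also passed, but only as at least 1.06-fold higher with LF3. Passing in either direction were thus 50% of the fibroblast markers tested, against 40.5% of all genes. Fibroblast markers were summed over all 18 on the array, including the 12 detected on none of the 6 arrays. The summed normalized intensity lay between 1304 and 1450 for LF3 and between 1325 and 1403 for ICG-001, which overlap.

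Cdsn, corneodesmosin of the cornified envelope, stood at 9.26, 9.33 and 9.73 with LF3, at 10.95, 10.76 and 10.80 with ICG-001 and at 7.45, 7.02 and 7.00 with DMSO. Both inhibitors were far above DMSO for Cdsn, and ICG-001 was higher than LF3 (difference -1.40, SE 0.15, 2.64-fold, limma adjusted p = 1.58e-05). Krt10, a keratin of differentiating epidermis, was higher with LF3 by 0.64 (SE 0.10). The salivary water channel Aqp5 stood at 11.61, 11.66 and 11.55 with LF3 and at 11.15, 11.06 and 11.05 with ICG-001, a difference of 0.52 (SE 0.12), with 1.05 from its other probe. The ion transporter Slc12a2, which drives fluid secretion, went the other way (-0.67, SE 0.12).

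Of 11 tested circadian clock genes, 3 passed in each direction (54.5% in all, against 40.5% of all genes). Dbp, an output factor of the clock, stood at 9.22, 8.78 and 9.02 with LF3, at 6.41, 6.56 and 6.47 with ICG-001 and at 8.27, 8.49 and 8.46 with DMSO. The LF3 arrays were the highest and the ICG-001 arrays the lowest, with a difference of 2.53 (SE 0.13, 5.77-fold, limma adjusted p = 3.91e-08). Tef, a relative of Dbp, differed by 0.52 (SE 0.14) and Per2, a core clock repressor, by 0.57 (SE 0.16), both calls being lost with median scaling, and that of Per2 also without LF3 replicate 1 (adjusted p = 0.0629) or ICG-001 replicate 3 (adjusted p = 0.0570). Over the alternatives limma's adjusted p for Per2 reached 0.434. Arntl (-0.37), Clock (-0.36) and Nfil3 (-0.32) went the other way, of which 0 passed without the first ICG-001 array.

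Some genes were detected with 1 inhibitor only. Of the genes tested, 45 were detected on all 3 LF3 arrays and no ICG-001 array, all of which passed, and 72 on all 3 ICG-001 arrays and no LF3 array, of which 67 passed. These genes were picked on the same arrays that the test compares, so the pass counts carry no added support. Of all genes, 40.5% passed. On the DMSO arrays, 29 of the 45 were detected on all 3 arrays and 2 on none, whereas 19 of the 72 were detected on all 3 and 24 on none. Most of the genes seen only with LF3 were thus also seen in the solvent. The 4 largest of the first kind were Angpt2, Rab7b, Mgp and Mrgprf. Angpt2, angiopoietin 2, a ligand of the endothelial receptor TIE2, stood at 7.67, 7.29 and 7.25 with LF3 and at 7.72, 7.47 and 7.66 with DMSO, at least 4.23-fold above ICG-001. Rab7b, a GTPase of late endosomes, stood at 7.27, 7.27 and 7.25 with LF3, at least 3.83-fold higher, and Mrgprf, an orphan receptor, was at least 2.33-fold higher. The 4 largest of the second kind were Oasl2, Gbp3, Ccl4 and Isg15, described above. Spon2, a secreted matrix protein, at 6.75, 6.48 and 6.17 with LF3, was likewise detected on no ICG-001 array and was at least 2.21-fold higher.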

How the data were processed

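Illumina bead arrays measured total RNA, cleaned on columns and labelled as biotin cRNA, per the labels' protocols. The authors deposited linear probe intensity values with no normalization seen in them and a detection p-value per probe, made with GenomeStudio 2010.1, per the submitters' processing notes. Detection p columns were matched to arrays by their place in the file, a match that the values bore out. The authors' processed values served as an alternative.

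From the deposited intensities, limma 3.58.1 in R 4.3.3 inferred the background from the detection p-values (normexp, offset 16), took log2 and quantile-normalized the 9 arrays. Probes with a detection p under 0.01 on at least 3 of 9 arrays were kept, 10830 of 25697. The kept probe with the highest mean stood for its gene, and 625 kept probes without a gene symbol were left out. A single limma model (lmFit, eBayes) of the 3 groups gave LF3 minus ICG-001, with p-values adjusted over 7354 genes. It was tested on simulated data. "At least" folds set the mean of the bright group against the lowest signal of detected probes, or the probe's own if higher, for genes detected on at most 1 array of the other group. The precision is limited by the 3 arrays a group. Motifs were counted in RefSeq windows of genes matched by symbol.

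Gene lists and comparisons were chosen with earlier results of these data known. Named were the 12 largest differences in each direction, in every list the 4 genes of lowest adjusted p, a set of Wnt genes and the 4 largest genes detected with 1 inhibitor only. Other members named were chosen after their values were seen, the ones completing short counts included.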

Additional observations from a re-analysis of the deposited data

How the results depend on the processing

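Of 150 genes named with a call, 126 kept direction and call under all 18 alternatives. The total of 2978 was 2735 with median scaling, 3446 with array weights, 2966 from the authors' processed values (99.5% of calls shared) and 2349 to 2849 when 1 array was left out. Median scaling left 750 genes higher with LF3. Without background correction 164 genes, and with an offset of 50 169 genes, were at least 2-fold different, against 304. Same-numbered arrays did not deviate together (correlations 0.14, -0.07 and 0.03), and the fit with the replicate block called 2873. Directions turned with median scaling for Dst (-0.1483), Etv1 (-0.0799), Kremen1 (-0.0073), Plvap (-0.0641), Twist1 (-0.1561) and the DNA replication median (-0.0615), for Elf3 with cyclic loess (0.0202) and array weights (0.0174), and for the endothelial median with the 6 arrays alone (-0.4927) and, chosen after seeing the data, also without ICG-001 replicate 1 (-0.3917). With 1 array left out, the differences that turned ranged from -0.0741 to 0.1459 for Dst, -0.1092 to 0.1243 for Elf3, -0.184 to 0.2758 for Etv1, -0.0457 to 0.0058 for Krt8, -0.0173 to 0.221 for Plvap and -0.0778 to 0.2237 for Twist1. None of these genes, Kremen1 included, passed in the reported comparison. The causes were not tested. The slide as a block was not run, since no source used here names the slides. Dim probes limit the lowest levels.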

Other observations

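Other gene groups gave smaller or mixed differences between the inhibitors (limma, adjusted p of 0.05). Of 20 tested apoptosis regulators, 6 were higher with ICG-001 and 3 with LF3 (1 with median scaling), which is 45% in all against 40.5% of all genes. The inflammatory caspase Casp4, detected on 1 LF3 array, was at least 2.06-fold higher with ICG-001. Its death-promoting relative Casp8 was higher with LF3 by 0.58. Bcl2l11, the BH3-only protein BIM, was called at -0.66, while its other 2 probes gave -0.22 and -0.29. Of 21 tested genes of histone acetylation, 8 were higher with LF3 and 2 with ICG-001 (47.6% in all, against 40.5% of all genes). The split was 2 and 5 with median scaling, the first count was 5 without the second ICG-001 array, and the second was 1 without the third and 4 or 5 with the 6 arrays alone or array weights. Hdac5, a class II deacetylase, was higher with LF3 by 0.73, and Sirt1, an NAD-dependent deacetylase, was higher with ICG-001 (-0.61). Of 28 tested proteasome genes, 3 passed in each direction, which is 21.4% against 40.5% of all genes. Those higher with ICG-001 were 6 without LF3 replicate 3 and with array weights, and 5 in 4 further alternatives, and those higher with LF3 were 1 with median scaling.

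Of 15 tested actin and SRF genes, 3 passed in each direction, which is 40% in all against 40.5% of all genes. The actin-severing cofilin Cfl1 (1.14) and the actin-binding profilin Pfn1 (-0.66) went opposite ways. Of 19 tested TGF-β and BMP genes, 4 were higher with ICG-001 and 3 with LF3 (36.8% in all, against 40.5%). The first count was 9 with median scaling and 2 without any single ICG-001 array. Ltbp1, which stores latent TGF-β in the matrix, led with -0.81. Of 9 tested YAP targets, 3 were higher with ICG-001 and 0 with LF3 (33.3% in all, against 40.5%). Among the 3 were Ankrd1 (-0.77) and Axl (-0.36), the latter not without the second ICG-001 array (limma adjusted p = 0.0594). Of 8 tested intermediate filament genes, 2 were higher with ICG-001 and 1 with LF3 (37.5% in all, against 40.5%). The latter count was 0 with median scaling and 2 without LF3 replicate 3 or ICG-001 replicate 3. Among the filament genes, Nes, nestin, a filament of neural and other progenitors, was called at -0.74, while its other probe gave -0.37 and did not pass. Of 7 tested cornified envelope and desmosome genes, 4 were higher with LF3 and 2 with ICG-001 (85.7% in all, against 40.5% of all genes). The first count was 2 without the second ICG-001 array and with median scaling, and the second was 1 without LF3 replicate 2 or the first ICG-001 array. Of the 4 tested endothelial markers, 1 passed in each direction (50% in all, against 40.5% of all genes). The VEGF receptor Flt1 was at least 1.84-fold higher with ICG-001. Tie1 was called higher with LF3 (0.48, limma adjusted p = 0.00432), although it was detected on none of the 6 arrays. Of the 5 tested basal markers, 0 passed.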
